A study of Mus musculus with 2 samples.

Results

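The inhibitory transmitter glycine acts through a small set of genes, and 7 of the 32285 genes in the count matrices were chosen here by symbol: the glycine receptor subunits *Glra1*, *Glra2*, *Glra3* and *Glrb*, the glycine transporters *Slc6a5* and *Slc6a9*, and the scaffold gene *Gphn*. They were measured by single-cell RNA-sequencing (scRNA-seq) in hippocampal Cajal-Retzius (CR) cells, early-born neurons that secrete reelin, of mice at postnatal day 14 (P14). The control library pooled 4 conditional heterozygous *ΔNp73-Cre; Cic* flox/+; tdT mice (3 males and 1 female), and the knockout library pooled 4 conditional knockout *ΔNp73-Cre; Cic* flox/flox; tdT littermates (2 males and 2 females). Both groups carried the Cre recombinase driven by *ΔNp73* and the red reporter tdT, by which cells were sorted, and the control cells too had 1 floxed copy of *Cic*, which encodes the transcriptional repressor Capicua (CIC). With 1 library per genotype there was no replicate check, so no p-value is given, and the pools also differed in the number of males and females.

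Glycine receptors are chloride channels made of α subunits, which bind glycine and can form channels by themselves, and the β subunit encoded by *Glrb*, which does not form a channel alone. The β subunit binds gephyrin, the product of *Gphn*, which anchors glycine receptors and many GABA-A receptors under inhibitory synapses and also takes part in making the molybdenum cofactor. The α subunit encoded by *Glra2* is the prevailing one in the immature brain, including the immature cortex, whereas that of *Glra1* prevails at adult synapses of the spinal cord and brainstem. GlyT2 (*Slc6a5*) refills the terminals of glycinergic neurons, and GlyT1 (*Slc6a9*) clears glycine mainly into astrocytes. In immature neurons that hold much chloride, opening of these channels can depolarize the cell.

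The genes lay on 7 chromosomes of the mouse build GRCm38. *Glrb* spanned chr3:80843599-80913660 on the minus strand, *Glra2* chrX:165129017-165327393 on the minus strand, *Glra1* chr11:55514238-55608198 on the minus strand and *Glra3* chr8:55940460-56130070 on the plus strand. *Slc6a5* spanned chr7:49910146-49963856, *Slc6a9* chr4:117834506-117875198 and *Gphn* chr12:78226379-78684772, all on the plus strand. *Slc6a9* is overlapped by *Gm17114*, *Ccdc24* and *B4galt2* on the opposite strand, and 6 annotated genes lie within or across *Gphn*, of which only *Gm48226* was in the matrices, with 45 control and 18 knockout UMIs in CR cells. Since CIC is a repressor that binds octamers such as TGAATGAA, the 250 bases upstream of the RefSeq start sites (GRCm38.p6) were searched for TGAATGAA, TGAATGGA, TCAATGAA and TCAATGGA on both strands. None of 9 upstream windows of 6 of the 7 genes (*Glra1* had no entry) held one, whereas 3.19% of 32851 promoters did, which says only that these letters are not in these windows. The windows of *Glrb*, the receptor gene with most of the RNA, and of *Glra2*, the gene of the immature α subunit, are shown because the genotype and class comparisons below turn on these genes. Capitals would mark an octamer, and there is none.
Glrb, chr3:80913661-80913910, minus strand, 62.4% G and C: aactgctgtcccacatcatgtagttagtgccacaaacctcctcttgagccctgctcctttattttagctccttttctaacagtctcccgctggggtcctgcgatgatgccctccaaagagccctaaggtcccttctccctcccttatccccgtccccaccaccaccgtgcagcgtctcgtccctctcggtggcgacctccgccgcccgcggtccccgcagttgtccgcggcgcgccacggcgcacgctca
Glra2, chrX:165327394-165327643, minus strand, 50.4% G and C: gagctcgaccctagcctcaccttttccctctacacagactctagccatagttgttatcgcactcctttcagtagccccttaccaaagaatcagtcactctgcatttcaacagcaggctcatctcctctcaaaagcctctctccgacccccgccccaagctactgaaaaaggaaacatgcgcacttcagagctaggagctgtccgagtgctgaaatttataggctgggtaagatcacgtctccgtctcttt

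Each captured RNA molecule carries a tag that is counted once (unique molecular identifier, UMI). A barcode was taken as a CR cell when it held at least 2000 UMIs and at least 5 of *Reln*. This gave 1003 control cells with 2012 to 31769 UMIs (median 6224) and 390 knockout cells with 2769 to 33453 UMIs (median 6664), and no cell barcode was shared by the libraries. Levels are UMIs summed over cells per 1000000 UMIs (CPM), leaving out genes whose symbols start with mt-, Rpl, Rps or Mrp. All 8 CR markers (*Reln*, *Trp73*, *Lhx1*, *Lhx5*, *Ebf3*, *Nhlh2*, *Calb2* and *Cacna2d2*) had a UMI in at least 26.7% of control and 35.9% of knockout cells. Of 6 markers of GABAergic neurons, 5 had a UMI in under 1% of cells in each library, with *Dlx1* and *Dlx6os1* at 0, and of 6 granule and pyramidal neuron markers *Neurod2* and *Neurod6* were at 0, whereas *Dock10* had a UMI in 69.99% and 68.5% of cells. *Cspg4*, listed for oligodendrocyte precursors (30.3% and 37.9%), and *Rgs5*, listed for endothelial and mural cells (31.8% and 30.3%), were also found in many cells, while *Olig2* and *Kcnj8* of the same lists were at 0 in both libraries. The 7 astrocyte markers together came to 40.9 CPM in control and 35.4 CPM in knockout cells, with a UMI of the leading one, *Apoe*, in 3.99% and 11.3% of cells. As a measure of free RNA, 29040 control and 75813 knockout droplets of 20 to 100 UMIs (median 89 and 44) were summed in the same way.

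The α subunit genes were barely detected in CR cells. *Glra2* had 36 UMIs in 18 of 1003 control cells, or 5.45 CPM (95% interval 3.82 to 7.55), and 15 UMIs in 6 of 390 knockout cells, or 5.42 CPM (3.04 to 8.94). *Glra1* had 15 UMIs in 15 control cells (2.27 CPM) and 6 UMIs in 6 knockout cells (2.17 CPM). *Glra3*, whose product is best known from the spinal cord and retina, had 3 control and 2 knockout UMIs, and *Glra4*, a further α gene, had 3 and 0, where a count of 0, read as at most 3 counts, allows up to 1.08 CPM. All intervals are exact and cover counting error only. Taken as a sum, the 4 α genes reached 8.63 CPM (6.54 to 11.2) in control cells and 8.32 CPM (5.27 to 12.5) in knockout cells, with a UMI in 3.89% (2.78 to 5.28) and 3.59% (1.98 to 5.95) of cells.

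The few UMIs of *Glra2* were unevenly spread. Of the 18 control cells with a UMI, 7 held more than 1, and these 7 cells held 25 of the 36 UMIs, with up to 7 in 1 cell. In the knockout, 3 of 6 cells held 12 of the 15 UMIs, again with up to 7 in 1 cell. *Glra1*, by contrast, never exceeded 1 UMI per cell. No *Glra2* UMI was seen in the control droplets and 3 were seen in the knockout droplets (0.987 CPM), while *Glra1* had 0 and 4 (1.32 CPM). The separate CPM intervals of *Glra1* in droplets and cells overlapped in both libraries. Taken as a ratio of droplets over cells, however, control *Glra1* was at 0 (0 to 0.845), an interval below 1. The knockout ratio of *Glra1* was 0.607 (0.126 to 2.56), and its interval held 1. Among the cells with *Glra2* RNA, 17 of 18 control and 4 of 6 knockout cells also held *Trp73*, beside 88.7% and 92.3% of all CR cells. None held *Glra1* or *Slc6a5* UMIs in either library. Over all CR cells *Glra1* was found in 1.5% of control and 1.54% of knockout cells, and *Slc6a5* in 2.79% and 4.1%. With shares this low, 18 and 6 cells cannot show whether these genes avoid each other. The median depth of the cells with *Glra2* RNA was 7656 UMIs in the control, against 6208 UMIs in the other cells, and 5662 against 6752 UMIs in the knockout.

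*Glrb* was the only receptor subunit gene detected in a large part of the cells. It had 804 UMIs in the control, or 121.8 CPM (113.5 to 130.5), and 430 UMIs in the knockout, or 155.5 CPM (141.1 to 170.9). A UMI was found in 504 of 1003 control cells (50.2%, 47.1 to 53.4) and in 231 of 390 knockout cells (59.2%, 54.2 to 64.1). Most positive cells held 1 UMI (308 control and 116 knockout cells) or 2 (117 and 66), and no cell held more than 7. If every cell had been read to 2000 UMIs, the expected share of cells with a UMI would be 20.1% in the control and 24.6% in the knockout, so the shares as measured depend on depth. In droplets *Glrb* stood at 54.6 CPM (control) and 53.3 CPM (knockout), which is 0.448 (0.367 to 0.544) and 0.343 (0.284 to 0.412) of the level in the cells, whereas *Reln* in droplets was 0.117 and 0.112 of its level in the cells, and *Trp73*, another CR marker, was 1.75 and 1.74 times as high in droplets as in cells. The 8 control and 16 knockout barcodes of at least 2000 UMIs with fewer than 5 *Reln* UMIs held 1 and 2 *Glrb* UMIs.

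**Figure D1:**
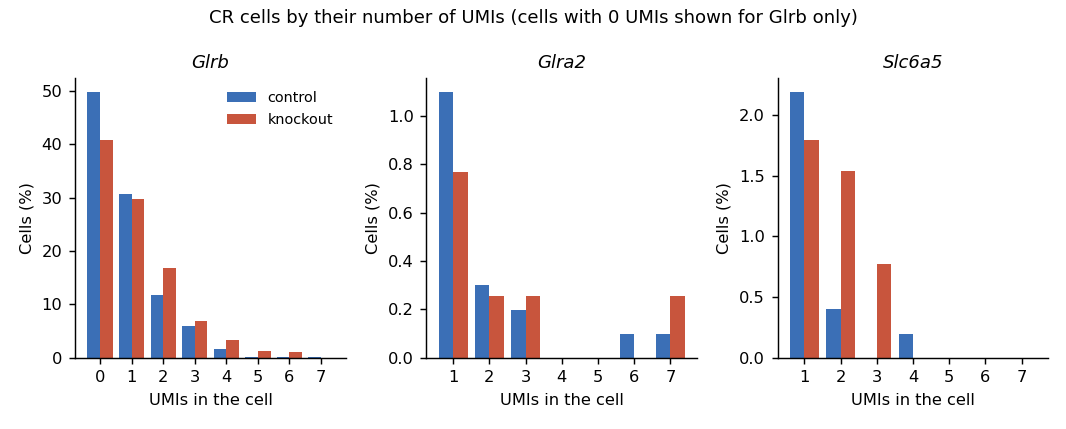
Share of CR cells (%) by the number of UMIs of *Glrb*, *Glra2* and *Slc6a5* in the cell, in the control (blue) and knockout (red) library, with cells without a UMI drawn for *Glrb* only. *Glrb* is missing from 499 control and 159 knockout cells and reaches 7 UMIs, while *Glra2* and *Slc6a5* are present in under 5% of cells, some with several UMIs.

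Per kb of annotated exon, *Glrb* was at 26.2 CPM (24.4 to 28.04) in the control and 33.4 CPM (30.3 to 36.7) in the knockout, far above *Glra2* at 1.73 (1.21 to 2.4) and 1.72 (0.964 to 2.84) and *Glra1* at 0.941 (0.527 to 1.55) and 0.899 (0.33 to 1.96). Per kb the intervals of *Glra2* and *Glra1* overlapped in both libraries, whereas in CPM not scaled by length those of the control, 3.82 to 7.55 for *Glra2* and 1.27 to 3.75 for *Glra1*, did not. *Slc6a5* was at 0.799 and 1.41 CPM per kb, overlapping *Glra1* in both libraries, and *Slc6a9* (0.0884 and 0.211) and *Glra3* (0.0494 and 0.0785) came last and overlapped each other. The assay reads 3′ ends, so that exon length is a nominal scale for it. The share of cells with *Glrb* did not differ beyond counting error between cells with and without an α UMI. Among control cells with an α UMI 24 of 39 (61.5%, 44.6 to 76.6) held a *Glrb* UMI, against 49.8% (46.6 to 53.0) of the others, and in the knockout 7 of 14 (50%, 23.04 to 76.96) against 59.6% (54.4 to 64.6). With every cell thinned to 2000 UMIs in a single draw, 2 of 11 control and 1 of 6 knockout cells with an α UMI held *Glrb*, against 20.7% and 19.8% of the others. For comparison, the 19 GABA-A receptor subunit genes summed to 1128 CPM in control and 1080 CPM in knockout cells, not scaled by length, with a UMI in 96.7% and 98.2% of cells.

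Both glycine transporter genes, *Slc6a9* and *Slc6a5*, were barely detected. *Slc6a9* had 3 UMIs in each library, each in a separate cell, at 0.454 and 1.08 CPM, and was as low in the droplets (0 and 1 UMI). *Slc6a5*, a marker of glycinergic neurons, had 38 UMIs in 28 control cells (2.79%, 1.86 to 4.01), or 5.76 CPM (4.07 to 7.90), and 28 UMIs in 16 knockout cells (4.10%, 2.36 to 6.58), or 10.1 CPM (6.73 to 14.6). It reached 4 UMIs in 2 control cells and 3 UMIs in 3 knockout cells. *Trp73* was held by 27 of the 28 control and all 16 knockout cells, beside 88.7% and 92.3% of all CR cells. In droplets *Slc6a5* was at 2.29 CPM (0.745 to 5.36) and 1.97 CPM (0.725 to 4.30), 0.399 (0.122 to 1.01) and 0.195 (0.066 to 0.48) of the level in cells. *Slc32a1*, the vesicular carrier that loads glycine and GABA into synaptic vesicles, had 5 control and 0 knockout UMIs. *Glrb* was found in 12 of the 28 control and 10 of the 16 knockout cells with *Slc6a5* RNA, and 3 control cells held both *Slc6a5* and *Glra1*.

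Another carrier of glycine was abundant. *Slc7a10*, which encodes Asc-1, a neuronal exchanger of D-serine, glycine and other small amino acids, had 788 control and 345 knockout UMIs, or 119.4 and 124.7 CPM, with a UMI in 50.6% and 53.1% of cells. Its level in droplets was 0.442 (control) and 0.301 (knockout) of that in cells. Of the 13 genes of the glycine supply and clearance list, in which *Glra4* was placed too, 5 held at least 100 UMIs. Besides *Slc7a10* these were 3 components of the mitochondrial glycine cleavage system, *Gcsh* (18.9 and 26.4 CPM), *Amt* (34.7 and 46.3 CPM) and *Dld* (54.4 and 47.0 CPM), and *Shmt2* (16.8 and 13.4 CPM), which makes glycine from serine in mitochondria. In droplets *Gcsh* was higher than in cells, at 100.1 and 94.1 CPM. *Dld* was higher in droplets, at 68.8 and 95.8 CPM, and *Amt* lower, at 24.3 and 29.6 CPM. For *Dld* and *Amt* the intervals of droplets and cells overlapped in the control and were apart in the knockout, with the same direction in both libraries. An overlap of separate intervals does not show that 2 levels are equal. *Shmt2* droplets (21.6 and 19.4 CPM) overlapped the cells in their intervals in both libraries. The decarboxylase of the cleavage system, *Gldc*, had 21 control and 11 knockout UMIs. *Slc6a14*, *Slc38a3* and *Slc38a5*, other amino acid carriers, had at most 2 UMIs in a library, *Slc6a20a* had 13 and 3, and *Shmt1* 38 and 11.

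**Figure D2:**
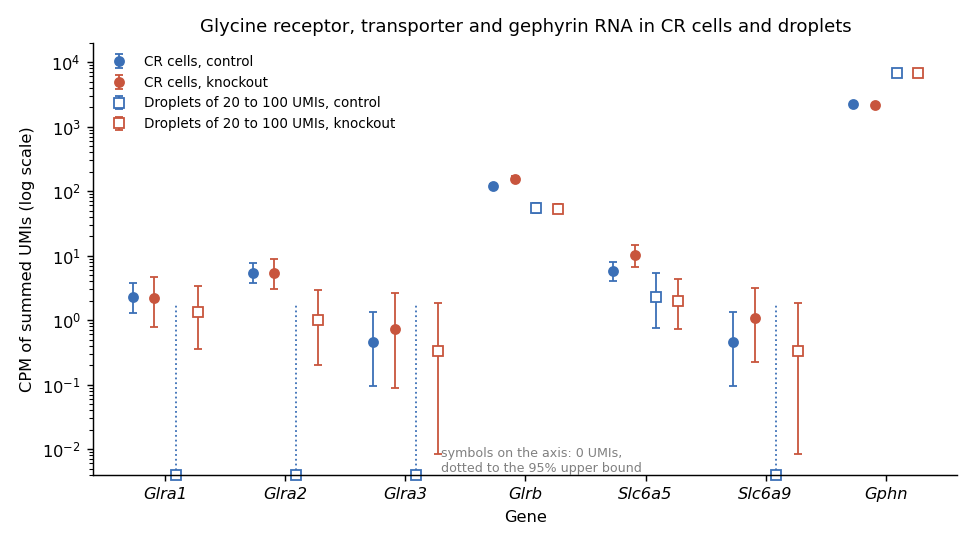
CPM of summed UMIs (log scale) of each gene in CR cells (filled circles) and in droplets of 20 to 100 UMIs (open squares) of the control (blue) and knockout (red) library, with exact 95% Poisson intervals. *Glrb* is at 121.8 and 155.5 CPM in cells and lower in droplets, whereas *Gphn* is at 2243 and 2156 CPM in cells and higher in droplets.

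*Gphn* counts were high in nearly every CR cell. It had 14805 UMIs in the control, or 2243 CPM (2207 to 2279), and 5963 UMIs in the knockout, or 2156 CPM (2101 to 2211), with a UMI in 1002 of 1003 control and all 390 knockout cells. Per cell, the level ran from 0 to 11669 CPM with a median of 2109 in the control, and from 107.3 to 7635 CPM with a median of 2066 in the knockout. Per kb of exon this came to 598.2 and 575.1 CPM, above *Glrb* in both libraries. The droplets held still more, at 6776 CPM (6667 to 6886) and 6825 CPM (6732 to 6918), or 3.02 (2.95 to 3.09) and 3.17 (3.08 to 3.26) times the level in the cells. *Gphn* ranked 28 and 27 among all genes in the cells and 7 and 6 in the droplets.

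This pattern was shared with a group of other transcripts that were chosen after their values were seen. *Gm42418* and *AY036118*, which lie in a ribosomal RNA repeat, and *Cmss1*, *Cdk8*, *Lars2* and *Camk1d* were 2.93 to 6.57 times as high in control droplets as in control cells and 2.97 to 5.94 times in the knockout. Some genes of gephyrin partners were also higher in droplets than in cells. In the control *Dynll1* was at 442.4 against 112.7 CPM, *Dynll2* at 580.6 against 124.2, *Gabarap* at 573.3 against 110.3 and *Pfn1* at 139.1 against 35.7. The knockout had the same direction for each. *Nbea*, *Nlgn2* and *Lhfpl4* were lower in droplets in both libraries, and *Iqsec3* in the control, with *Nbea* at 162.9 against 823 CPM there. *Gphn* had 11.8 UMIs per 100 *Gm42418* UMIs in control cells and 9.78 in control droplets, against 9.76 and 9.9 in the knockout, while *Glrb* had 0.639 and 0.0789 in the control. Over 1003 control cells, the *Gphn* share of a cell's UMIs followed those of *Gm42418* (Spearman's rho 0.613) and *Cmss1* (0.598), and over 390 knockout cells rho was 0.567 and 0.569. After thinning to 2000 UMIs, rho with *Gm42418* was 0.427 and 0.297. With *Glrb* rho was 0.0264 and 0.0529 as measured and -0.0255 and 0.0561 after thinning. With *Nbea*, the gene of the gephyrin-binding protein neurobeachin, it was -0.0467 and -0.125 as measured and -0.0739 and -0.0144 after thinning. The cells of a library share its depth and free RNA, and these values are a description. *Gphn* was also higher in the cells that gave at least 2% of their UMIs to nuclear respiratory chain genes, at 2991 CPM in 65 control cells against 2145 CPM in the other cells, and at 2644 CPM in 24 knockout cells against 2096 CPM. The part of reads from free RNA or from within the 458.4 kb of the gene in the *Gphn* count was not tested.

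**Figure D3:**
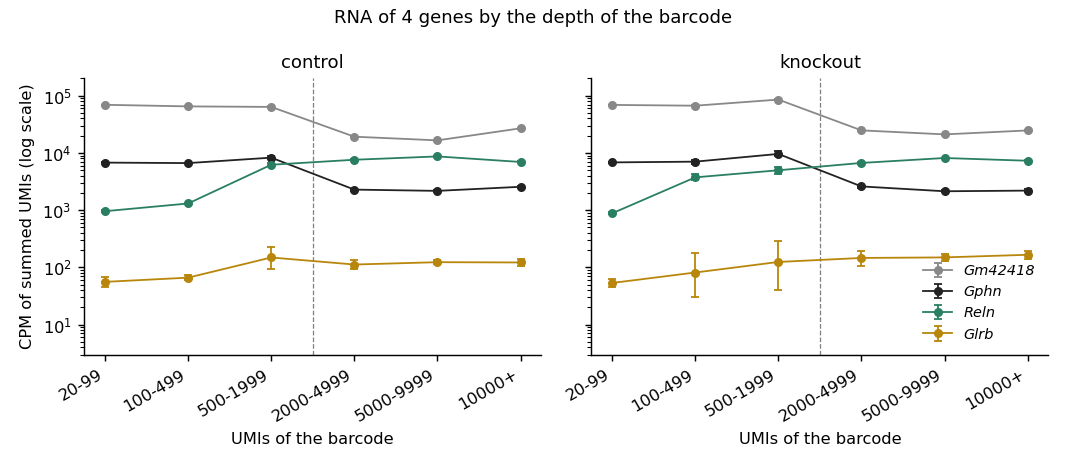
CPM of summed UMIs (log scale) of *Gm42418*, *Gphn*, *Reln* and *Glrb* against the UMIs of the barcode in 6 bins, in the control (left) and knockout (right) library, with exact 95% Poisson intervals; the dashed line marks 2000 UMIs. *Gphn* and *Gm42418* drop from the bin of 500 to 1999 UMIs to that of 2000 to 4999 UMIs, from 8260 to 2284 CPM for control *Gphn*, while *Reln* is highest among the cells.

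The first comparison asked how these genes differ between CR cells of the conditional knockout and of the heterozygous control. Cre in this line does not remove CIC from every CR cell, so the knockout library may hold cells that kept it. *Glrb* was 1.28 times as high in the knockout as in the control (1.13 to 1.44). With each cell weighted equally the ratio was 1.25, and the value expected over all draws of 2000 UMIs per cell was 1.25, but the single draw gave 1.04 (0.809 to 1.33), from 92 and 228 UMIs. Among cells with *Xist* and no Y-linked UMI, from females, the ratio was 1.27 (1.04 to 1.56), and among cells with Y-linked UMIs alone it was 1.21 (1.03 to 1.43). The interval covers counting error only, and a difference between the 2 pools of mice cannot be told apart from one between genotypes. Of 9442 genes with at least 100 UMIs, 4.4% lay past 1.5-fold in either direction (258 higher and 157 lower in the knockout), neither *Glrb* nor *Gphn*, the members that were tested, was among them, and 16.4% of genes had a ratio at least as far from 1 as that of *Glrb*.

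*Gphn* was 0.961 (0.933 to 0.991) times as high in the knockout. The low genes left wider ranges: *Glra2* had a ratio of 0.994 (0.506 to 1.86) and *Glra1* 0.955 (0.303 to 2.6). Without the cell with the most UMIs in each library, the *Glra2* ratio was 0.659 (0.26 to 1.48), so that 1 cell per library moved it by more than 1.5 times. *Glra2* is X-linked, and in cells with *Xist* and no Y-linked UMI, 6 knockout and 2 control UMIs gave 3.51 (0.628 to 35.6), against 0.924 (0.388 to 1.98) in cells with Y-linked UMIs alone. *Slc6a5* was 1.76 (1.04 to 2.94) times as high in the knockout, on 28 and 38 UMIs. This interval took in 1 when the cells with the highest doublet scores were removed, at 1.62 (0.944 to 2.74). For *Glra3*, *Slc6a9* and *Glra4*, with at most 3 UMIs in each library, no ratio is given.

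Of 21 tested genes of the lists around the glycine synapse, 1 (4.76%) lay past 1.5-fold between genotypes, near the 4.4% of all genes. In the glycine supply and clearance list, 0 of 5 tested genes lay past 1.5-fold, *Gcsh* (1.39, 1.03 to 1.88) and *Amt* (1.33, 1.07 to 1.66) had intervals above 1, and *Slc7a10* was at 1.04 (0.918 to 1.19). Of 14 gephyrin partners and postsynaptic genes in the matrices, 12 were tested and 0 lay past 1.5-fold, with a median log2 ratio of -0.00175 beside 0.00613 over all tested genes. The neuroligin *Nlgn2*, which recruits gephyrin, was at 89.1 CPM in control and 103.4 CPM in knockout cells (ratio 1.16, 1.004 to 1.34). *Pacsin1* was at 1.15 (1.01 to 1.31), the dynein light chain gene *Dynll2* at 0.862 (0.752 to 0.985), *Nbea* at 0.924 (0.878 to 0.972), and *Enah*, an actin regulator, at 1.23 (1.11 to 1.36). In 1 knockout cell *Enah* had 107 of its 598 UMIs, and without this cell its ratio was 1.01 (0.911 to 1.13). The others, *Iqsec3*, *Lhfpl4*, *Dynll1*, *Gabarap*, *Pfn1* and *Pfn2*, ran from 0.857 to 1.09. *Mocs2*, for molybdenum cofactor synthesis, was at 1.08 (0.829 to 1.41). Of the NMDA receptor subunits that bind glycine, *Grin1* was at 1.09 (0.996 to 1.19) and *Grin3a* at 0.662 (0.475 to 0.907), on 184 control and 51 knockout UMIs, the only tested gene of these lists past 1.5-fold. The chloride importer *Slc12a2* was at 1.19 (0.894 to 1.56), and the chloride exporter *Slc12a5*, below the limit of 100 UMIs with 33 control and 28 knockout UMIs, at 2.03 (1.18 to 3.46).

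**Figure D4:**
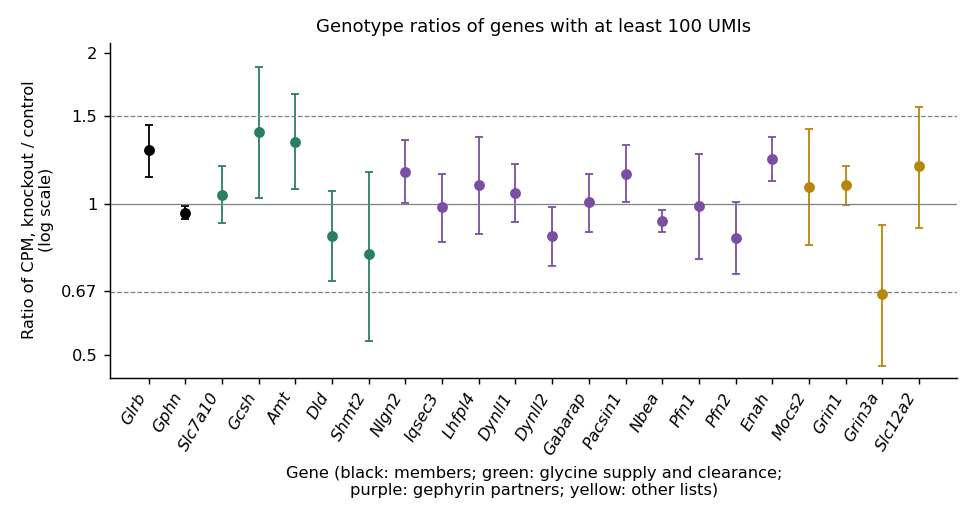
Ratio of CPM, knockout over control (log scale), for *Glrb*, *Gphn* and 20 listed genes with at least 100 UMIs, with exact 95% intervals and dashed lines at 1.5-fold in either direction. *Glrb* is at 1.28 and *Gphn* at 0.961, and only *Grin3a*, at 0.662, lies past a dashed line.

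The second comparison asked whether the genes differ between CR cells with and without RNA of 3 class genes: *Cck*, a neuropeptide gene (324 control and 110 knockout cells), *Grik1*, a kainate receptor gene (194 and 70 cells), and *Chst8* or *Alkal2* (232 and 91 cells). A cell may belong to several classes, and positive cells were deeper, at a median of 6720 against 6059 UMIs for *Chst8* or *Alkal2* in the control and 7869 against 6361 in the knockout. *Glrb* had nearly the same level on both sides of each class. For *Cck* it stood at 120.2 CPM in positive and 122.6 CPM in negative control cells (ratio 0.98, 0.844 to 1.14), and at 147.1 and 158.9 CPM in the knockout (0.926, 0.742 to 1.15). For *Grik1* the ratio was 0.994 (0.833 to 1.18) in control cells and 1.04 (0.811 to 1.32) in knockout cells, and for *Chst8* or *Alkal2* it was 1.03 (0.871 to 1.21) and 1.05 (0.842 to 1.30). All 6 intervals held 1. When the classes were split further, knockout cells positive for *Cck* alone stood at 118.4 CPM (89.9 to 153.1) and those of no class at 166.6 CPM (143.6 to 192.2). Knockout cells positive for *Cck* and for *Chst8* or *Alkal2* stood at 199.8 CPM (142.7 to 272). The share of all genes past 1.5-fold in either direction was 5.06% for *Cck*, 6.82% for *Grik1* and 6.4% for *Chst8* or *Alkal2* in the control, and 8.25%, 7.92% and 8.06% in the knockout, and 0 of the 2 tested members were past it in any of the 6.

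*Glra2* RNA was unequal between the classes in the control. In *Grik1*-positive control cells it had 21 UMIs, or 15.2 CPM, and in negative cells 15 UMIs, or 2.87 CPM, a ratio of 5.31 (2.61 to 11.1). Of the 18 control cells with *Glra2* RNA, 8 were positive for *Grik1* (44.4%, 21.5 to 69.2), against 18.9% of the other cells. Without the cell with the most UMIs on each side the ratio was 4.45 (1.91 to 10.5), at least 2 *Grik1* UMIs for positive cells gave 8.4 (4.05 to 17.8), and classes read from the thinned counts gave 1.84 (0.0389 to 16.4) on 1 and 5 UMIs. In the knockout, 2 UMIs in positive and 13 in negative cells gave 0.64 (0.0701 to 2.82), with 1 of 6 *Glra2* cells positive for *Grik1*. The control value was not repeated in the knockout library, and the difference between the libraries was not tested. In *Cck*-positive control cells *Glra2* was lower, at 1.75 against 7.42 CPM (0.236, 0.0605 to 0.664), on 4 and 32 UMIs. Other class rules moved this ratio to 0.0959 (0.00236 to 0.574) with at least 2 *Cck* UMIs, 0.617 (0.105 to 2.57) with cells of 1 class alone and 0.921 (0.0195 to 8.23) with classes read from the thinned counts. The knockout value was 2.83 (0.897 to 9.17) on 8 and 7 UMIs and 0.622 (0.0126 to 6.28) without the cell with the most UMIs on each side.

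*Slc6a5* was lower in *Cck*-positive cells in both libraries, at 3.50 against 6.95 CPM in the control (0.503, 0.199 to 1.12) and at 1.26 against 13.7 CPM in the knockout (0.0917, 0.00224 to 0.557). The control interval held 1, and the knockout value rested on 1 and 27 UMIs. It was 0.365 (0.0081 to 2.84) in the single draw of 2000 UMIs and 0.809 (0.0179 to 6.29) with classes also read from that draw, both on 1 and 7 UMIs. Of the cells with *Slc6a5* RNA, 5 of 28 control (17.9%, 6.06 to 36.9) and 1 of 16 knockout cells (6.25%, 0.158 to 30.2) were positive for *Cck*, against 32.7% and 29.1% of the other cells. Without the cell with the most UMIs on each side, the control ratio was 0.292 (0.074 to 0.841). For *Grik1* and for *Chst8* or *Alkal2*, all *Slc6a5* intervals held 1.

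**Figure D5:**
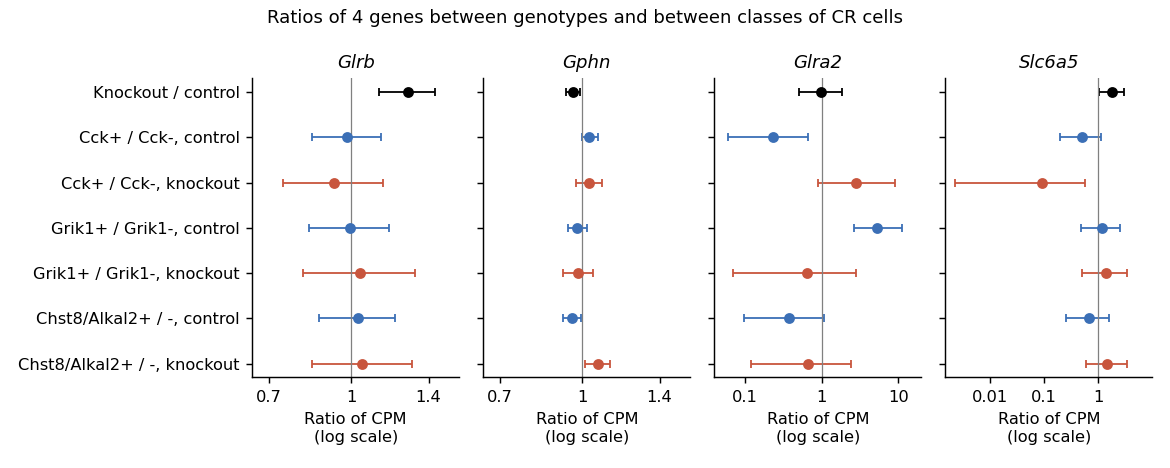
Ratio of CPM (log scale) of *Glrb*, *Gphn*, *Glra2* and *Slc6a5* between genotypes (black) and between positive and negative cells of each class in the control (blue) and knockout (red) library, with exact 95% intervals. The *Glrb* intervals of the classes all hold 1, whereas *Glra2* is at 5.31 for *Grik1* in the control and at 0.64 in the knockout.

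*Gphn* ratios of the classes lay between 0.957 and 1.07, and those of *Chst8* or *Alkal2* lay on opposite sides of 1, at 0.957 (0.921 to 0.994) in control cells and 1.07 (1.01 to 1.13) in knockout cells. Among the listed genes, *Slc7a10* was higher in *Chst8*- or *Alkal2*-positive cells of both libraries, at 137.7 against 113.3 CPM in the control (1.21, 1.04 to 1.42) and 150.2 against 115.1 CPM in the knockout (1.31, 1.03 to 1.64). *Grin1* was too, at 1.21 (1.08 to 1.36) and 1.46 (1.24 to 1.70). In *Grik1*-positive cells *Slc7a10* was at 0.722 (0.592 to 0.874) in control cells and 0.911 (0.68 to 1.2) in knockout cells, and *Grin3a* at 1.79 (1.29 to 2.46) and 1.57 (0.785 to 2.98). Among listed genes with at least 100 UMIs in the library, those at or past 1.5-fold in the control were *Gcsh* by *Cck* (1.58, 1.09 to 2.28) and *Amt* (0.616, 0.41 to 0.898), *Slc12a2* (0.641, 0.393 to 1.002) and *Grin3a* by *Grik1*. Of 21 tested listed genes these were 1 (4.76%) by *Cck*, 3 (14.3%) by *Grik1* and 0 by *Chst8* or *Alkal2*. The shares over all genes were 5.06%, 6.82% and 6.4%. *Gcsh* was at 62.8 CPM in the control cells rich in respiratory chain RNA and 13.2 CPM in the others, and the rich cells made up 8.33% of *Cck*-positive and 5.6% of negative cells. Without them the *Gcsh* ratio was 1.46 (0.896 to 2.34). The control ratios by *Grik1* without them were 0.607 (0.396 to 0.902) for *Amt*, 1.79 (1.28 to 2.48) for *Grin3a* and 0.651 (0.389 to 1.04) for *Slc12a2*. In the knockout the genes at or past 1.5-fold were *Dynll1* (0.577) and *Pfn2* (0.583) by *Grik1*, *Amt* by *Grik1* (1.5, 0.984 to 2.25) and *Enah* by *Chst8* or *Alkal2* (1.84, 1.55 to 2.17), the last only with the cell that held 107 UMIs and at 1.05 (0.853 to 1.28) without it. Of 15 tested listed genes these were 0 by *Cck*, 3 (20%) by *Grik1* and 1 (6.67%) by *Chst8* or *Alkal2*. The shares over all genes were 8.25%, 7.92% and 8.06%. *Dynll1* and *Pfn2* were also higher in the cells rich in respiratory chain RNA, which made up 4.29% of *Grik1*-positive and 6.56% of negative knockout cells, and without these cells their ratios were 0.752 (0.491 to 1.12) and 0.702 (0.413 to 1.13). The knockout ratio of *Amt* by *Grik1* without these cells was 1.55 (1.004 to 2.34). That of *Enah* by *Chst8* or *Alkal2* was 1.78 (1.5 to 2.12), with the cell of 107 UMIs kept. With fewer than 100 UMIs in the knockout, *Gcsh* by *Chst8* or *Alkal2* was at 0.42 (0.192 to 0.824) and *Slc12a2* by *Cck* at 0.359 (0.165 to 0.701). *Amt* by *Grik1* lay on opposite sides of 1 in the 2 libraries.

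Over 11 groups of at least 20 cells made by library and by the 3 classes, the genes whose level was most like that of *Glrb* were *Cltc* (Pearson's r 0.897), *Uba2* (0.891) and *Zfp266* (0.875), among 3768 genes. For *Gphn* they were *Vamp2* (0.957), *Cct8* (0.889) and *H3f3a* (0.866). The groups of a library share its depth and free RNA, and the 3 highest of so many genes are high by selection, so these are a description. In these groups *Glrb* ran from 101.6 to 129.4 CPM in the control and from 118.4 to 199.8 CPM in the knockout. The group without any class RNA stood at 122.1 CPM (108.4 to 137.0) in 387 control cells and 166.6 CPM (143.6 to 192.2) in 173 knockout cells. Cells positive for *Cck* alone did not differ in this way, at 120.3 CPM (103 to 139.6) in 215 control and 118.4 CPM (89.9 to 153.1) in 72 knockout cells. The knockout was higher, with overlapping intervals, for *Grik1* alone (156.1 against 125.7 CPM) and *Chst8* or *Alkal2* alone (141.1 against 120.4 CPM). The same held for *Cck* with *Chst8* or *Alkal2* (199.8 against 129.4 CPM).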

How the data were processed

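CR cells of 1 control and 1 knockout library, each of 4 pooled mice, were measured with 10x 3′ v3.1 chemistry. The authors deposited raw UMI counts of every gene in every barcode, without normalization or cell calling. The matrix header names Cell Ranger 4, the submitters' processing notes Cell Ranger 8.0.1 with mm39, and the methods another version with mm10; whether reads in introns were counted is not given in the sources used here. No genome coordinates are in the matrices, and Ensembl identifiers were matched to GENCODE M21 (GRCm38) for positions.

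For each group of cells, summed counts were divided by all UMIs outside the left-out genes, which held 6601724 control and 2765943 knockout UMIs, so that 3 counts stand for 0.454 and 1.08 CPM. Intervals at 95% are exact: Poisson for CPM, Clopper-Pearson for shares and, for a ratio, the split of both counts. No ratio was given where both counts were at most 3. With 1 library per genotype, and cells that are no replicates, no test was made, and genes with at least 100 UMIs past 1.5-fold served as background. Thinning drew 2000 UMIs per cell once (seed 1). The members and lists were chosen with earlier results of these data known. Named were all members and each listed gene with at least 100 UMIs; *Gldc*, *Shmt1*, *Slc12a5* and other genes below that were named after their values were seen. *Nlgn4l* was not analysed here. Some listed genes are not reported here. Doublets were kept, and removed as an alternative with Scrublet (scanpy 1.11.5, 0.8% per 1000 cells). Other alternatives changed the scaling, the cell limits, free RNA, sex and the class rule. The value expected over all draws, the removal of shared barcodes, the scaling without droplet-leading genes, the removal of 1 cell for *Enah* and the removal of respiratory-rich cells for listed genes were added after the data were seen. Python 3.11.15, numpy 2.4.6 and scipy 1.17.1 were used, and the intervals were tested on simulated data.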

Additional observations from a re-analysis of the deposited data

Results flagged for a closer look

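*Gphn* by *Chst8* or *Alkal2* moved in opposite directions in the 2 libraries, with a ratio of positive over negative cells of 0.957 in the control and 1.07 in the knockout; the difference was not tested. *Gphn* was also higher outside the CR cells than in them. In barcodes of at least 2000 UMIs with fewer than 5 *Reln* UMIs it stood at 7809 CPM in 8 control and 4981 CPM in 16 knockout barcodes, in barcodes of 500 to 1999 UMIs at 8260 CPM (191 control barcodes) and 9595 CPM (51 knockout barcodes), and in droplets of 20 to 100 UMIs at 6776 and 6825 CPM, against 2243 and 2156 CPM in the CR cells. Of the 8 control barcodes, 1 held 217 of their 287 *Gphn* UMIs, and of the 16 knockout barcodes, 1 held 34 of 236. In barcodes of 500 to 1999 UMIs, 1 barcode held 140 of 1221 *Gphn* UMIs in the control and 129 of 386 in the knockout. These pooled levels therefore rest in part on single barcodes, most of all in the 8 control barcodes.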

How the results depend on the processing

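Of 236 values of *Glrb* and *Gphn* ratios under other settings, 221 stayed within the 95% interval of the reported value, 15 left it, and 0 crossed 1 where the reported interval left out 1. The removal of shared barcodes took out 0 cells, because no cell barcode was shared, so its values could only stay. They are counted among those that stayed, here and for the low genes and the levels below. A single draw of 2000 UMIs per cell took the *Glrb* genotype ratio to 1.04, the *Glrb* ratio to 1.18 for *Cck* in the control and 1.35 for *Grik1* in the knockout, and the *Gphn* ratio to 0.962 for *Cck* and 1.06 for *Grik1* in the control; the value expected over all draws stayed within the interval in each case. Classes read from the thinned counts gave *Glrb* ratios of 1.29 (*Cck*), 0.789 (*Grik1*) and 0.595 (*Chst8* or *Alkal2*) in the control and 0.325 (*Cck*) and 1.47 (*Grik1*) in the knockout, and a *Gphn* ratio of 1.03 (*Grik1*, control), on as few as 5 *Glrb* UMIs in positive cells. With at least 2 UMIs for a positive cell, *Gphn* by *Grik1* was 1.02 in the control and 0.875 in the knockout. Cells of 1 class alone gave 1.02 for *Gphn* by *Grik1* in the control and 0.711 for *Glrb* by *Cck* in the knockout. Apart from the draws, the cause was not tested. Of 317 values of the low genes' ratios, 303 stayed within their wide intervals and 14 left them, and of 196 levels 180 stayed and 16 left them. *Glra1*, *Glra2* and *Slc6a5* had at most 38 UMIs in a library, and *Glra3* and *Slc6a9* at most the 3 counts that a count of 0 allows, which leaves their ratios with wide intervals. No paired analysis was possible because each genotype has 1 library.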
